A study of Mus musculus with 12 samples.

Results

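The genes described here bring iron into the cell, store it, release it and sense it. From the 22915 genes in the deposited table, 10 of this kind were taken by name: the ferrireductases Steap4 and Steap3, the importers Tfrc and Slc11a2, the ferritin chains Fth1 and Ftl1, the exporter Slc40a1, the haem oxygenase Hmox1, and the iron sensors Ireb2 and Aco1. They are not all iron genes of the table, and a wider list is described further below. The set was selected on the rise of Steap4 with mLIF, so the PBS and mLIF values of Steap4 chose it. Values of members with mLIF against PBS, and all values of Steap4 set against PBS or mLIF, are therefore given as a description without a test.

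Primary cardiomyocytes of male C57/Bl6 mice, 12 weeks old and without any further allele or transgene named, were cultured in normoxia and exposed to a recombinant cytokine or PBS for 24 h. Murine leukemia inhibitory factor (mLIF) acts through LIFR, murine oncostatin M (mOSM) through OSMR, and hlOSM is an engineered, human-like oncostatin M that uses both receptors. The sample descriptions give 25 ng/mL for each protein and an equal volume of sterile PBS for controls, whereas the methods text of the study gives a lower dose. There were 3 libraries per condition, 12 in all, and no source used here says whether they came from separate animals or cultures, so p-values measure only the spread between these libraries.

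Ferric iron must be reduced to ferrous iron before it can cross a membrane, which is the work of the STEAP reductases. Transferrin receptor and Slc11a2 (DMT1) carry iron into the cytosol, ferritin cages store it, and ferroportin, encoded by Slc40a1, is the known cellular exporter. The sensors IRP1 (Aco1) and IRP2 (Ireb2) bind iron-responsive elements, short hairpins in messenger RNAs. Binding near the start of a transcript blocks its translation, and binding in the tail of the Tfrc transcript protects it from decay. Cardiomyocytes depend on this balance, since their mitochondria need iron for haem and iron-sulphur clusters and free iron is toxic.

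The hairpin was searched in transcripts on GRCm38 as the loop CAGTGN closed by 5 paired bases, with an unpaired C before the left arm of the stem. It was found upstream of the coding sequence in Fth1, Ftl1 and Slc40a1, that is in 3 of 10 members against 0.11% of 20916 genes, and in the 3′ untranslated region of Tfrc, 1 of 10 members against 0.475% of 21039 genes. The members were chosen by name as iron genes, so these shares are a description and not a test. A hairpin with a gap or mismatch in its stem would be missed by the search. Lack of a match, as for the importer Slc11a2, therefore does not show that a transcript has no such element. The sequences are shown because they set the storage and export genes apart from the importer Tfrc. Capitals mark the loop, and all 7 windows lie within 1 exon. The windows lie at chr19:9982732-9982761 (plus strand) for Fth1, chr7:45459778-45459807 (minus strand) for Ftl1 and chr1:45925464-45925493 (minus strand) for Slc40a1. The 4 windows of Tfrc, called A to D from the start of the transcript on, lie at chr16:32631219-32631248, chr16:32631598-32631627, chr16:32631663-32631692 and chr16:32631710-32631739 on the plus strand.
Fth1: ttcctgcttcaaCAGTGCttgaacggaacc
Ftl1: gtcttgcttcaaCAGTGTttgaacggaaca
Slc40a1: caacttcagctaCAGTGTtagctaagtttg
Tfrc element A: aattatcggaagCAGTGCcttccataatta
Tfrc element B: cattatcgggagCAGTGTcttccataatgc
Tfrc element C: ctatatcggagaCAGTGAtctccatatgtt
Tfrc element D: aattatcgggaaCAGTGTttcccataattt

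Promoters were taken from RefSeq (GRCm38.p6, 250 bases before to 50 after each start site), which held 12 promoters of 7 members. Those of Hmox1, Slc40a1 and Slc11a2 were not available, so neither motif was searched for them. Of these 12, 1 (that of Steap4) held the STAT motif TTCNNNGAA, which is its own reverse complement. This share is close to the 8.3% of 32851 promoters that held it. The antioxidant response element TGACNNNGC, searched on both strands, was in 0 of the 12, against 12.4% of all promoters. Elements outside these windows were not searched. Neither motif overlaps the other in the promoter of Steap4, and a match is a description of letters, not of binding. The promoter is shown because Steap4 changed most among the members. It lies at chr5:7960222-7960521 on the plus strand, and capitals mark the STAT motif, whose distance to the start site is given in bases as -116.
Steap4 promoter: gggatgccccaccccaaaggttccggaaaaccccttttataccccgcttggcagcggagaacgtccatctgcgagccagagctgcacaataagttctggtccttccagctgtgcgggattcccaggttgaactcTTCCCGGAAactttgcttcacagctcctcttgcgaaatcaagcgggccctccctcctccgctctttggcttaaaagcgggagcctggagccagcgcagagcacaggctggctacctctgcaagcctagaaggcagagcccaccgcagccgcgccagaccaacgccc

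Library totals lay between 2745748 and 2911891 on the scale of the table, which holds normalized counts rounded to whole numbers, and these are not numbers of reads. The depth behind a single value is therefore unknown, and no counting interval was computed. The labelled cell type was present, since 7 cardiomyocyte markers (Myh6, Ttn, Tnnt2, Actn2, Ryr2, Pln, Myl2) summed to between 47617 and 49428 in PBS. The same sum was 41332 to 43089 for mLIF, 33337 to 37309 for mOSM and 34157 to 36625 for hlOSM, and 5, 6 and 6 of the 7 fell. The 7 endothelial markers summed to 1258 to 1350, 1303 to 1376, 1612 to 1927 and 1659 to 1763 in the same order of conditions, and 0, 5 and 5 of them rose while 1, 0 and 0 fell. For the 6 smooth muscle and pericyte markers the sums were 615 to 826, 554 to 626, 318 to 386 and 314 to 335, and 0, 5 and 5 fell. The 7 fibroblast markers summed to 2023 to 2259, 1886 to 2013, 2222 to 2621 and 2106 to 2346, and the 7 macrophage markers to 359 to 381, 339 to 375, 386 to 439 and 359 to 432. Of the fibroblast markers 0, 2 and 3 rose and 1, 3 and 4 fell, and of the 6 tested macrophage markers 1, 1 and 1 rose and 0, 0 and 2 fell. Of the erythroid markers only Epb42 was analysed here, at 0 or 1 in every library. The cardiomyocyte sums lay apart from PBS with each cytokine, and the endothelial and the smooth muscle and pericyte sums with mOSM and hlOSM. The fibroblast sums did so with mLIF only and the macrophage sums with mOSM only. The part of these shifts in the results was not tested. Fewer cells of a type and less RNA per cell cannot be told apart in such samples.

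Steap4 was the member with the widest range. This metalloreductase of the plasma membrane and endosomes reduces ferric iron and copper. Its gene lies at chr5:7960457-7982213 on mm10. Its normalized counts were 66, 65 and 22 in the PBS libraries, 146, 167 and 215 in mLIF, 440, 395 and 640 in mOSM, and 461, 447 and 729 in hlOSM. All mLIF libraries lay above all PBS libraries, all mOSM and hlOSM libraries lay above all mLIF libraries, and those of mOSM and hlOSM overlapped. The library numbered 3 was the lowest of PBS and the highest of each cytokine.

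The fitted log2 fold change of Steap4 over PBS was 1.90 ± 0.27 (SE) for mLIF, 3.37 ± 0.27 for mOSM and 3.51 ± 0.27 for hlOSM. As ratios of mean normalized counts these were 3.45-fold, 9.64-fold and 10.7-fold, or 2.69-fold, 7.51-fold and 8.33-fold over the mean of the PBS libraries 1 and 2 alone. With the 4 libraries numbered 3 left out, the log2 fold changes were 1.24, 2.65 and 2.77. By log2 fold change over PBS, Steap4 ranked 13th of 13184 tested genes for mLIF, 24th for mOSM and 21st for hlOSM, and among the 8670 genes with a mean of at least 50 it ranked 3rd, 9th and 7th. These ranks describe the selection and carry no test.

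Between the 2 oncostatin proteins, which did not enter the selection, Steap4 differed by 0.14 on the log2 scale, with a 95% interval from -0.42 to 0.71 and an adjusted p of 0.951. The interval spans a fall as well as a rise, so a difference between hlOSM and mOSM was not detectable with 3 libraries each. The step from PBS to mLIF (1.90) and the step from mOSM to hlOSM (0.14) differed by -1.76 ± 0.39 (SE), again as a description, since the PBS and mLIF libraries chose the gene. Without the 4 libraries numbered 3 this difference was -1.12.

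**Figure D1:**
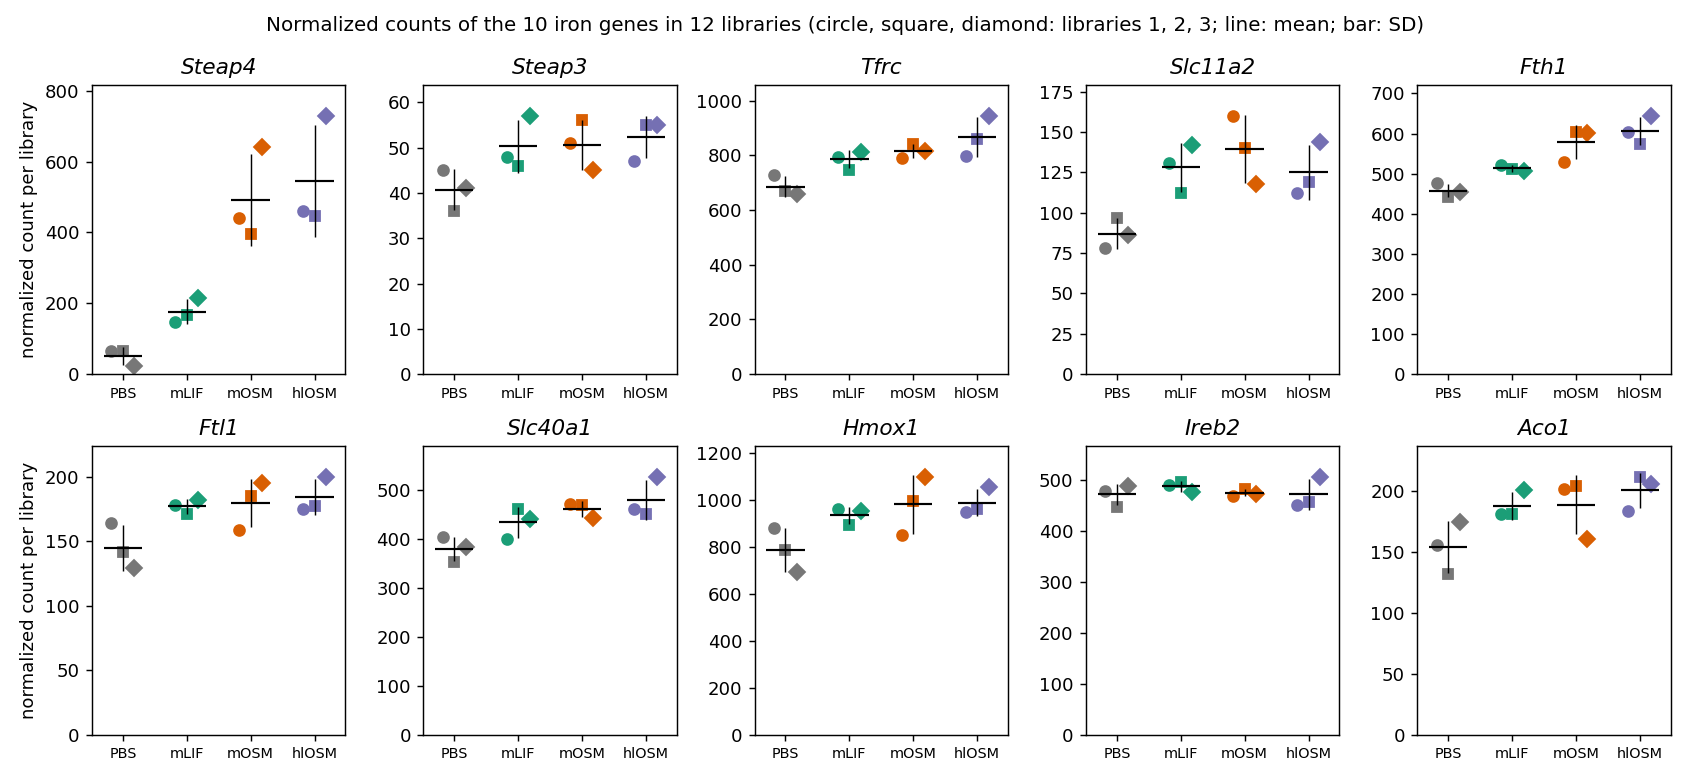
Normalized counts (vertical axes, from 0) of the 10 iron genes in the 3 libraries of each condition (horizontal axes). Symbols mark the libraries 1, 2 and 3, lines the means and bars the SD; Steap4 runs from 22 in a PBS library to 729 in an hlOSM library, whereas Ireb2 stays between 448 and 507 in all 12.

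Steap3, the endosomal ferrireductase that works beside the transferrin receptor in red cell precursors, had a narrow range, from 36 to 57. Its gene is at chr1:120190757-120272705 (mm10). It had normalized counts of 45, 36 and 41 in PBS, 48, 46 and 57 in mLIF, 51, 56 and 45 in mOSM and 47, 55 and 55 in hlOSM. The mOSM libraries reached down to the highest PBS library, whereas those of mLIF and hlOSM stayed just above it. In the fit the log2 change was 0.30 ± 0.14 (SE) for mLIF as a description, 0.31 ± 0.14 with mOSM (adjusted p = 0.0938) and 0.36 ± 0.14 with hlOSM (adjusted p = 0.0458). The hlOSM call was lost without any 1 of 7 libraries, namely PBS 2 and 3, mLIF 1 and 2, mOSM 1, and hlOSM 2 and 3, and over all libraries left out in turn the adjusted p lay between 0.0353 and 0.177. The mean of Steap4 was 1.25 times that of Steap3 in PBS, 3.5 times after mLIF, 9.7 times after mOSM and 10.4 times after hlOSM, without correction for transcript length.

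Of the 9 members other than Steap4, 7 rose with mOSM, against 15.4% of the 13184 tested genes that rose, and 0 fell, also at an unadjusted p under 0.05, against 15.8% of genes. With hlOSM, 8 of the 9 rose and 0 fell, against 18.2% and 19.8% of genes. The changes were small, at most 1.59-fold with mOSM and 1.43-fold with hlOSM. Their median log2 fold change was 0.31 with mOSM and 0.35 with hlOSM, where the median over all tested genes was -0.00 and -0.01. With mLIF the median was 0.26, against 0.00 over all genes, and the fit placed 4 of the 9 (Tfrc, Slc11a2, Ftl1, Hmox1) past the threshold upwards and 0 downwards, against 5.47% and 4.44% of genes. This mLIF count comes from the comparison that chose the set and is a description only, from which nothing is read. All 3 comparisons share the PBS libraries. Every member exceeded a normalized count of 10 in all 12 libraries, so none entered the test through a single condition. With the 4 libraries numbered 3 left out, 5 rose with mOSM, and 5 in place of 8 with hlOSM, where Ftl1, Hmox1 and Steap3 lost the call.

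**Figure D2:**
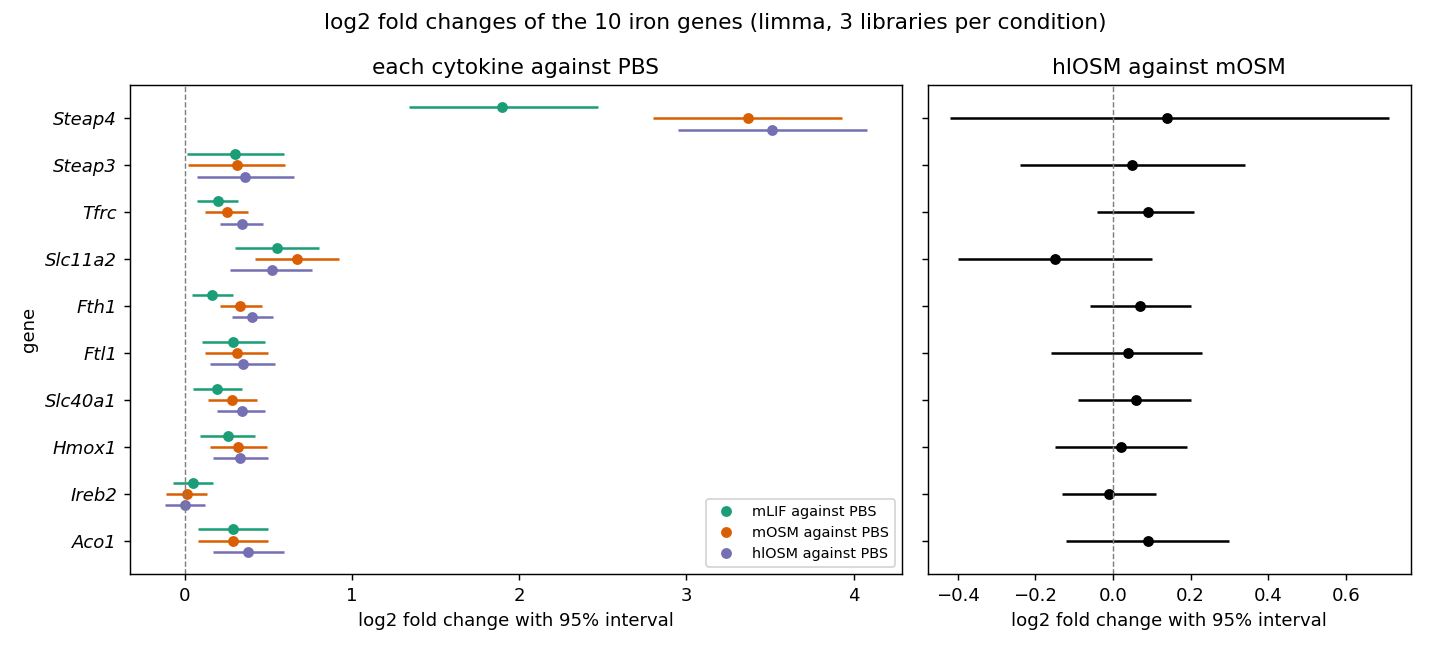
Fitted log2 fold changes (points) with 95% intervals (lines) of the 10 iron genes (vertical axis), on the left for each cytokine against PBS and on the right for hlOSM against mOSM, from 3 libraries per condition. Steap4 stands at 1.90, 3.37 and 3.51, the other members lie between -0.00 and 0.67, and all 10 intervals on the right include 0; intervals with mLIF and of Steap4 on the left are descriptions.

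The importers rose with both oncostatin proteins. Tfrc encodes the transferrin receptor, which takes up iron-loaded transferrin by endocytosis, and lies at chr16:32608920-32632794 (mm10). It had normalized counts of 729, 669 and 657 in PBS, 795, 748 and 812 in mLIF, 791, 840 and 815 in mOSM, and 798, 859 and 944 in hlOSM. Every cytokine library lay above every PBS library, and the cytokines overlapped each other. The log2 fold change of Tfrc was 0.20 ± 0.06 (SE) for mLIF as a description, 0.25 ± 0.06 with mOSM (adjusted p = 0.00308) and 0.34 ± 0.06 with hlOSM (adjusted p = 0.000153). Both calls held without each library in turn, and the transcript carries the 4 hairpins shown above.

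Slc11a2 encodes DMT1, the proton-coupled carrier that moves ferrous iron out of endosomes, and lies at chr15:100387898-100425072 (mm10). Its normalized counts were 78, 97 and 86 in PBS, 131, 112 and 142 in mLIF, 160, 140 and 118 in mOSM, and 112, 119 and 144 in hlOSM. All cytokine libraries exceeded the PBS libraries, and here the highest of the 12 was an mOSM library. On the log2 scale the change was 0.55 ± 0.12 (SE) for mLIF as a description, 0.67 ± 0.12 with mOSM (adjusted p = 0.000173) and 0.52 ± 0.12 with hlOSM (adjusted p = 0.00173). These were the largest changes among the 9. Its exons overlap those of Gm5475 on the opposite strand over 6.33% of their length, and 2.91% of the 75-base windows of its coding transcripts also occur in that gene.

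Both ferritin chains rose with mOSM and with hlOSM. Fth1, the heavy chain with ferroxidase activity, lies at chr19:9980598-9985098 (mm10). It had normalized counts of 476, 443 and 454 in PBS, 522, 511 and 506 in mLIF, 529, 604 and 601 in mOSM, and 603, 573 and 644 in hlOSM. The 4 conditions formed steps, with PBS below mLIF and mLIF below both oncostatin proteins, and mOSM and hlOSM overlapping. The log2 fold change over PBS was 0.16 ± 0.06 (SE) for mLIF as a description, 0.33 ± 0.06 with mOSM (adjusted p = 0.000217) and 0.40 ± 0.06 with hlOSM (adjusted p = 1.8e-05). Both calls held without each library in turn.

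Ftl1, the light chain that helps form the mineral core, lies at chr7:45457944-45459884 (mm10). Its normalized counts were 164, 142 and 129 in PBS, 178, 171 and 182 in mLIF, 159, 185 and 195 in mOSM, and 175, 177 and 200 in hlOSM. The lowest mOSM library lay below the highest PBS library, whereas the mLIF and hlOSM libraries were all above PBS. Its fitted log2 change was 0.29 ± 0.09 (SE) for mLIF as a description, 0.31 ± 0.09 with mOSM (adjusted p = 0.0136) and 0.35 ± 0.09 with hlOSM (adjusted p = 0.00525). The mOSM call was lost without PBS library 3 or without mOSM library 3, where the adjusted p reached 0.0898. The value of Ftl1 is uncertain, because 78.3% of the 75-base windows of its coding transcripts occur unchanged in 8 other annotated genes, among them Ftl1-ps1 and Ftl1-ps2, and reads that mapped to several places were left out by the authors. For Fth1 this share was 2.04%, and for the members other than Fth1, Ftl1 and Slc11a2 it was 0%.

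The ratio of Fth1 to Ftl1 was 2.9, 3.12 and 3.52 in the PBS libraries, 2.93, 2.99 and 2.78 in mLIF, 3.33, 3.26 and 3.08 in mOSM, and 3.45, 3.24 and 3.22 in hlOSM. Of the 9 cytokine libraries only mLIF library 3 lay outside the range of PBS, just below it, so the balance of the chains did not separate from the spread between PBS libraries.

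The exporter Slc40a1, at chr1:45908068-45926523 (mm10), encodes ferroportin. It had normalized counts of 403, 353 and 383 in PBS, 400, 462 and 441 in mLIF, 471, 470 and 442 in mOSM, and 462, 451 and 527 in hlOSM. The mOSM and hlOSM libraries all lay above PBS, and 1 mLIF library fell within the PBS range. Its log2 fold change was 0.19 ± 0.07 (SE) for mLIF as a description, 0.28 ± 0.07 with mOSM (adjusted p = 0.00379) and 0.34 ± 0.07 with hlOSM (adjusted p = 0.000639). Both calls held without each library in turn, so that the exporter moved in the same direction as the importers Tfrc and Slc11a2.

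Hmox1 encodes haem oxygenase 1, which opens the haem ring and frees its iron, and lies at chr8:75093621-75100589 (mm10). Its normalized counts were 880, 790 and 694 in PBS, 963, 895 and 953 in mLIF, 852, 996 and 1101 in mOSM, and 951, 963 and 1058 in hlOSM. The lowest mOSM library lay below the highest PBS library, and the mLIF and hlOSM libraries were above PBS. In the fit the log2 change was 0.26 ± 0.08 (SE) for mLIF as a description, 0.32 ± 0.08 with mOSM (adjusted p = 0.0045) and 0.33 ± 0.08 with hlOSM (adjusted p = 0.0024). Both calls held without each library in turn but were lost when the 4 libraries numbered 3 were left out together.

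Of the 2 sensors Aco1 passed the threshold with the oncostatin proteins and Ireb2 did not. Ireb2 encodes IRP2, whose amount is set by iron-dependent protein degradation, and lies at chr9:54863789-54912530 (mm10). It had normalized counts of 479, 448 and 489 in PBS, 490, 497 and 477 in mLIF, 470, 483 and 473 in mOSM, and 451, 458 and 507 in hlOSM. All conditions overlapped. Its log2 fold change was 0.05 ± 0.06 (SE) for mLIF as a description, 0.01 ± 0.06 with mOSM (95% interval -0.11 to 0.13, adjusted p = 0.909) and -0.00 ± 0.06 with hlOSM (-0.12 to 0.12, adjusted p = 0.991). Among the 9 members tested against PBS it was the only one that passed the threshold with neither oncostatin protein.

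Aco1 encodes IRP1, which is a cytosolic aconitase while it holds an iron-sulphur cluster and an RNA-binding protein without it, and lies at chr4:40143081-40198338 (mm10). Its normalized counts were 156, 132 and 175 in PBS, 181, 181 and 201 in mLIF, 202, 204 and 161 in mOSM, and 184, 212 and 206 in hlOSM. The lowest mOSM library lay inside the PBS range, and the mLIF and hlOSM libraries were above it. On the log2 scale the change was 0.29 ± 0.10 (SE) for mLIF as a description, 0.29 ± 0.10 with mOSM (adjusted p = 0.0319) and 0.38 ± 0.10 with hlOSM (adjusted p = 0.00474). The mOSM call was lost without PBS library 1 or 2 and without mOSM library 1 or 2, with an adjusted p of up to 0.202.

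The design also compares the cytokines with each other. The comparison of mOSM with mLIF sets 1 receptor against the other, and those of hlOSM with mLIF or mOSM ask what 1 receptor adds to the other. Between mOSM and mLIF, 0 of the 9 members other than Steap4 passed the threshold in limma, against 6.05% of genes that were higher and 5.76% that were lower, and 1, Fth1, had an unadjusted p under 0.05. Fth1 was higher with mOSM by 0.17 ± 0.06 (SE, adjusted p = 0.0798), and without mOSM library 1 its adjusted p was 0.0213. Between hlOSM and mLIF, 1 of the 9, Fth1, was higher and 0 were lower, against 7.42% and 9.22% of genes. Its difference was 0.24 ± 0.06 on the log2 scale (1.18-fold, adjusted p = 0.00861), all 3 hlOSM libraries lay above all mLIF libraries, and the call was lost with the 4 libraries numbered 3 left out. Steap4, as a description, was higher by 1.46 with mOSM and by 1.61 with hlOSM than with mLIF on the log2 scale.

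Between hlOSM and mOSM, 0 of 10 members passed the threshold in limma and 0 had an unadjusted p under 0.05. Of all genes 0% were higher with hlOSM and 0.106% were lower, with 987 genes at an unadjusted p under 0.05. Differences of the members lay between -0.15 for Slc11a2 and 0.14 for Steap4, with adjusted p from 0.808 to 0.985. The intervals show which sizes the libraries could still hold: for Fth1 they ran from -0.06 to 0.20, for Tfrc from -0.04 to 0.21 and for Slc11a2 from -0.40 to 0.10.

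The step from mOSM to hlOSM was set against the step from PBS to mLIF for the 9 members, as a description without a test, since the latter step belongs to the comparison that chose the set. For Slc11a2 the step was -0.15 from mOSM to hlOSM and 0.55 from PBS to mLIF, a difference of -0.71 ± 0.17 (SE), which was the largest in size. Over the 9 members the difference lay between -0.71 and -0.06 on the log2 scale.

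Levels of different genes were compared after division by the length of the longest coding transcript, as mean normalized counts per kilobase. In PBS Hmox1 stood highest at 502 ± 59.3 (SD, n = 3), followed by Fth1 at 306 ± 11.2, Ftl1 at 149.8 ± 18.3 and Tfrc at 140.1 ± 7.89, of which Ftl1 and Tfrc did not differ beyond their spread. Slc40a1 (113 ± 7.47), Ireb2 (81.8 ± 3.71) and Aco1 (40.3 ± 5.62) came next. Slc11a2 (19.7 ± 2.16) and Steap4 (16.2 ± 7.96) came after these, the spread of Steap4 taking in the mean of Slc11a2, and Steap3 was last at 7.88 ± 0.874. Hmox1 stayed first and Steap3 last in every condition. The order between them depended on the length used. Divided by all merged exons, Ireb2 (49.8 ± 2.26) stood above Slc40a1 (42.2 ± 2.8) in PBS.

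Steap4 moved up this order. It reached 55.8 ± 11.2 (SD, n = 3) for mLIF, 156 ± 41.3 for mOSM and 173 ± 50.4 for hlOSM, which was 9th of the 10 genes in PBS, 7th with mLIF and 5th with both oncostatin proteins. With mOSM and hlOSM its spread took in both neighbours, Tfrc at 167 ± 5.01 and 177 ± 15, and Slc40a1 at 137 ± 4.88 and 142 ± 12.19. Divided by all merged exons instead, it stood 8th in PBS, 5th with mLIF and 3rd with mOSM and hlOSM. The level of Ftl1 on this scale is affected by its shared windows.

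The genes whose profile over the 12 libraries was most like that of Steap4 were Thbd, Serpina3n, Star, Spred3 and Angptl4, out of 8669 genes with a mean of at least 50. Likeness was the root mean square difference of log2 profiles, each centred on its own mean, and it was 0.24 for Thbd, 0.25 for Serpina3n, 0.28 for Star, 0.48 for Spred3 and 0.49 for Angptl4, with a median of 1.49 over all genes compared. Thbd, which encodes thrombomodulin, had means of 96.3 ± 33.6 (SD, n = 3) in PBS, 256 ± 30.7 for mLIF, 749 ± 95.5 for mOSM and 901 ± 222 for hlOSM. Like Steap4, all 5 were lowest in PBS library 3 and highest in hlOSM library 3. The points share libraries, so the likeness includes what is particular to a library as well as the response to a cytokine.

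**Figure D3:**
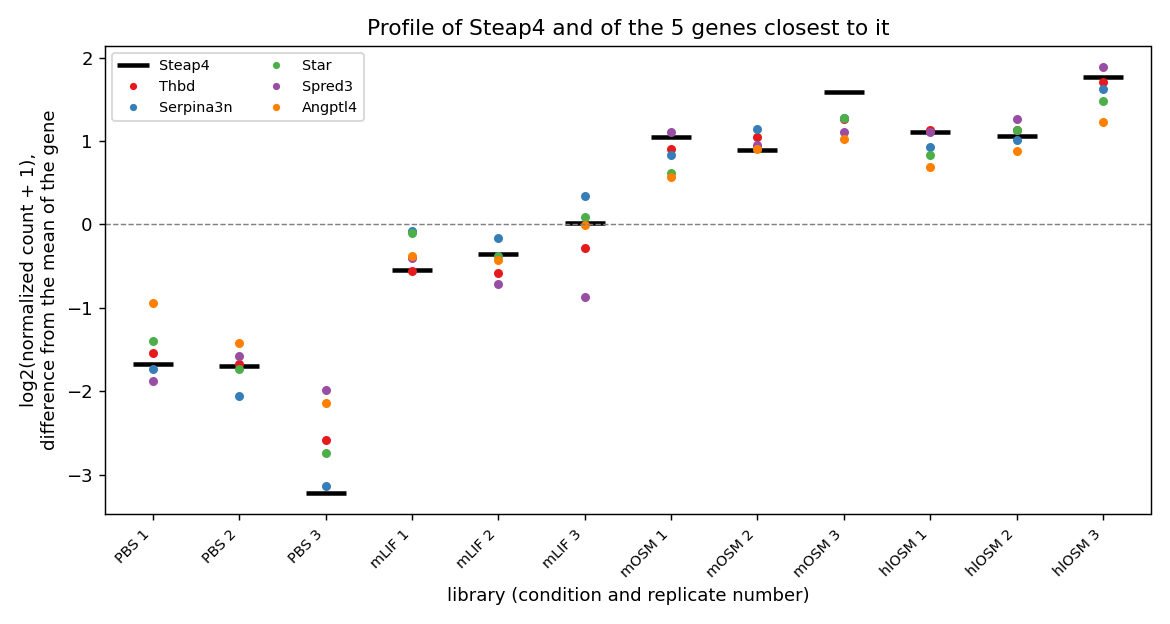
log2(normalized count + 1) of Steap4 (black bars) and of the 5 genes closest to it (coloured points), each as the difference from its own mean (vertical axis), in the 12 libraries (horizontal axis). The root mean square distance from Steap4 is 0.24 for Thbd and 0.49 for Angptl4, and PBS library 3 is the lowest of all for each gene shown.

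A wider list of 64 other iron genes was described by the same fit, of which 61 were analysed here and 49 passed the filter. With mOSM 10 of the 49 (20.4%) rose and 7 (14.3%) fell, beside 15.4% and 15.8% of all genes, and with hlOSM the counts were also 10 and 7, beside 18.2% and 19.8%. The median log2 fold change of the 49 was 0.00 and -0.01, equal to that of all genes within 0.01. With mLIF 6 rose and 1 fell (12.2% and 2.04%), beside 5.47% and 4.44% of all genes. The rises with each cytokine include Hamp, Lcn2 and Steap1. Lcn2 and Steap1 passed the filter only with cytokine libraries, and Hamp only through those of mOSM and hlOSM. The rises of these genes are therefore a description, and the shares of rises that hold them are not read as a result. Between hlOSM and mOSM 0 of the 49 passed the threshold in limma, and 3 had an unadjusted p under 0.05.

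In the import group 3 of 7 genes (Steap1, Slc39a14, Slc39a8) lay past the threshold upwards with each oncostatin protein and 0 downwards. Of all genes 15.4% rose with mOSM and 18.2% with hlOSM. Steap1 is in this count as a description only, for the reason given with its values. Slc39a8 (ZIP8), named after its values were seen, rose with mOSM by 1.03 ± 0.22 (SE, adjusted p = 0.000804) and with hlOSM by 0.62 ± 0.22 (adjusted p = 0.0263) on the log2 scale, and the hlOSM call was lost without PBS library 1 or 2 or hlOSM library 1 or 2. Steap1, a family member of Steap4, had normalized counts of 12, 9 and 17 in PBS, 21, 25 and 22 in mLIF, 31, 36 and 29 in mOSM, and 41, 39 and 33 in hlOSM. All cytokine libraries were above PBS, and its log2 fold change was 0.83 ± 0.20 (SE) for mLIF, 1.31 ± 0.20 for mOSM and 1.54 ± 0.20 for hlOSM. PBS library 2, at 9, lay under the filter value of 10, so Steap1 passed the filter only with cytokine libraries, where it is high. Its values are therefore a description without a test. With mLIF it fell short of the threshold without PBS library 2 or mLIF library 2. Steap2, the remaining family member, was at 157 ± 9.29 (SD, n = 3) in PBS, 171 ± 2.08 with mOSM and 176 ± 5.69 with hlOSM, with adjusted p of 0.249 and 0.116. Slc39a14 (ZIP14), which carries iron not bound to transferrin, had 484, 488 and 496 in PBS, 624, 581 and 657 in mLIF, 931, 939 and 863 in mOSM, and 881, 918 and 987 in hlOSM. Its log2 fold change was 0.34 ± 0.06 for mLIF, 0.89 ± 0.06 for mOSM and 0.92 ± 0.06 for hlOSM (adjusted p = 0.000803, 1.15e-10 and 5.09e-11). It was also higher with mOSM than with mLIF, by 0.55 ± 0.06 (adjusted p = 5.3e-07).

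Of the 4 tested storage and chaperone genes 0 passed the threshold in limma with any cytokine against PBS, and at an unadjusted p under 0.05 there was 1 for mLIF, 0 for mOSM and 1 for hlOSM. In the group of export and hepcidin control Cp was called higher and 2 of 6 genes (Hfe, Bmp6) lower with each oncostatin protein. Beside these stood 15.4% and 15.8% of all genes with mOSM and 18.2% and 19.8% with hlOSM. Hamp also lay past the threshold upwards, but it is left out of these calls for the reason given below. Cp, the ferroxidase ceruloplasmin that works with ferroportin, went from 619 ± 38.5 (SD, n = 3) in PBS to 768 ± 10.1 for mLIF, 829 ± 56.9 for mOSM and 921 ± 53.3 for hlOSM, and rose with each by 0.31, 0.42 and 0.57 on the log2 scale (adjusted p = 0.00226, 1.24e-05 and 1.32e-07). Hamp, which encodes hepcidin, the hormone that removes ferroportin from membranes, had normalized counts of 4, 1 and 1 in PBS, 8, 8 and 9 in mLIF, 7, 10 and 14 in mOSM, and 11, 29 and 12 in hlOSM. The cytokine libraries all lay above PBS. Hamp passed the filter on low values only through the mOSM and hlOSM libraries, where it is high, so its values are a description without a test, and at such values its fitted fold depends on the constant added before the logarithm.

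Hfe, the haemochromatosis gene that takes part in the control of hepcidin, had 167 ± 16.7 (SD, n = 3) in PBS, 134 ± 19.9 with mOSM and 113 ± 16.3 with hlOSM. It fell by 0.32 with mOSM (adjusted p = 0.032) and by 0.57 with hlOSM (adjusted p = 0.000315) on the log2 scale, and the mOSM call was lost without PBS library 2 or 3, without mOSM library 2, and with the 4 libraries numbered 3 left out. Bmp6, a known inducer of hepcidin, is named after its values were seen, since its mean of 48.2 lies just under the limit of 50. It had 70, 58 and 64 in PBS, 51, 69 and 67 in mLIF, 29, 34 and 34 in mOSM, and 40, 30 and 32 in hlOSM. The mOSM and hlOSM libraries lay below all PBS and mLIF libraries. Its log2 fold change was -0.96 ± 0.15 (SE) with mOSM and -0.90 ± 0.15 with hlOSM (adjusted p = 3.32e-05 and 5.73e-05), while with mLIF it was -0.05 ± 0.15 (adjusted p = 0.882). Bmp6 was also lower with mOSM than with mLIF (adjusted p = 0.00017), so that the difference between these cytokines was itself tested.

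Among the scavengers of haem and siderophores 2 were tested. Lcn2, the siderophore-binding lipocalin, had normalized counts of 3, 5 and 1 in PBS, 10, 8 and 13 in mLIF, 17, 13 and 27 in mOSM, and 11, 11 and 21 in hlOSM. Its libraries with cytokine were all above PBS, again at low values, and since it passed the filter only through those libraries its values are likewise a description. Lrp1, the receptor for haem bound to hemopexin, was at 1095 ± 57.6 (SD, n = 3) in PBS, 936 ± 16.6 with mOSM and 865 ± 26.3 with hlOSM. It was called lower with both, with log2 fold changes of -0.23 ± 0.06 (SE, adjusted p = 0.00403) and -0.34 ± 0.06 (adjusted p = 5.84e-05). With mLIF its log2 fold change was -0.17 ± 0.06 (adjusted p = 0.0574), which was not called.

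Of 15 genes of haem synthesis, transport and breakdown 3 rose and 2 fell with each oncostatin protein (20% and 13.3%), beside 15.4% and 15.8% of all genes with mOSM and 18.2% and 19.8% with hlOSM. Blvrb and Slc48a1 were called higher with both, Alas1 with mOSM and Ppox with hlOSM, and Cpox and Fech were called lower with both. The Alas1 call (adjusted p = 0.0243) was lost in 6 alternatives and the Ppox call (adjusted p = 0.0454) in 9, and the mOSM call of Fech was lost without PBS library 3. Blvrb, a biliverdin reductase downstream of haem oxygenase, had 65, 48 and 48 in PBS, 59, 88 and 74 in mOSM, and 76, 78 and 90 in hlOSM, with log2 fold changes of 0.45 ± 0.14 (SE, adjusted p = 0.0211) and 0.60 ± 0.14 (adjusted p = 0.00214). Both calls were lost with the 4 libraries numbered 3 left out. The mOSM libraries overlapped PBS, and the mOSM call was lost without PBS library 2 or 3 or mOSM library 2 or 3. Cpox, an enzyme of haem synthesis, fell by 0.30 with mOSM and by 0.35 with hlOSM (adjusted p = 0.00463 and 0.00116). Of 15 mitochondrial genes 1 rose and 2 fell with each oncostatin protein (6.67% and 13.3%), neither share above that of all genes. The falls included Hspa9, a mitochondrial chaperone, with mOSM (adjusted p = 0.0494) and Abcb10 with hlOSM (adjusted p = 0.0307), calls that were lost in 15 and 5 alternatives. Slc48a1, Alas1, Ppox, Fech, Hspa9 and Abcb10 were named after their values were seen. Slc25a37 (mitoferrin 1), an importer of iron into mitochondria, had 116, 119 and 120 in PBS, 168, 161 and 187 in mLIF, 221, 212 and 168 in mOSM, and 181, 190 and 232 in hlOSM. All cytokine libraries lay above PBS, and it rose by 0.53, 0.74 and 0.75 on the log2 scale (adjusted p = 0.002, 5.94e-06 and 3.92e-06). Slc25a28 (mitoferrin 2), also named after its values were seen, was not called in limma with mLIF, mOSM or hlOSM. Its log2 fold changes were -0.00, 0.08 and -0.08 (adjusted p = 0.994, 0.566 and 0.574).

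**Figure D4:**
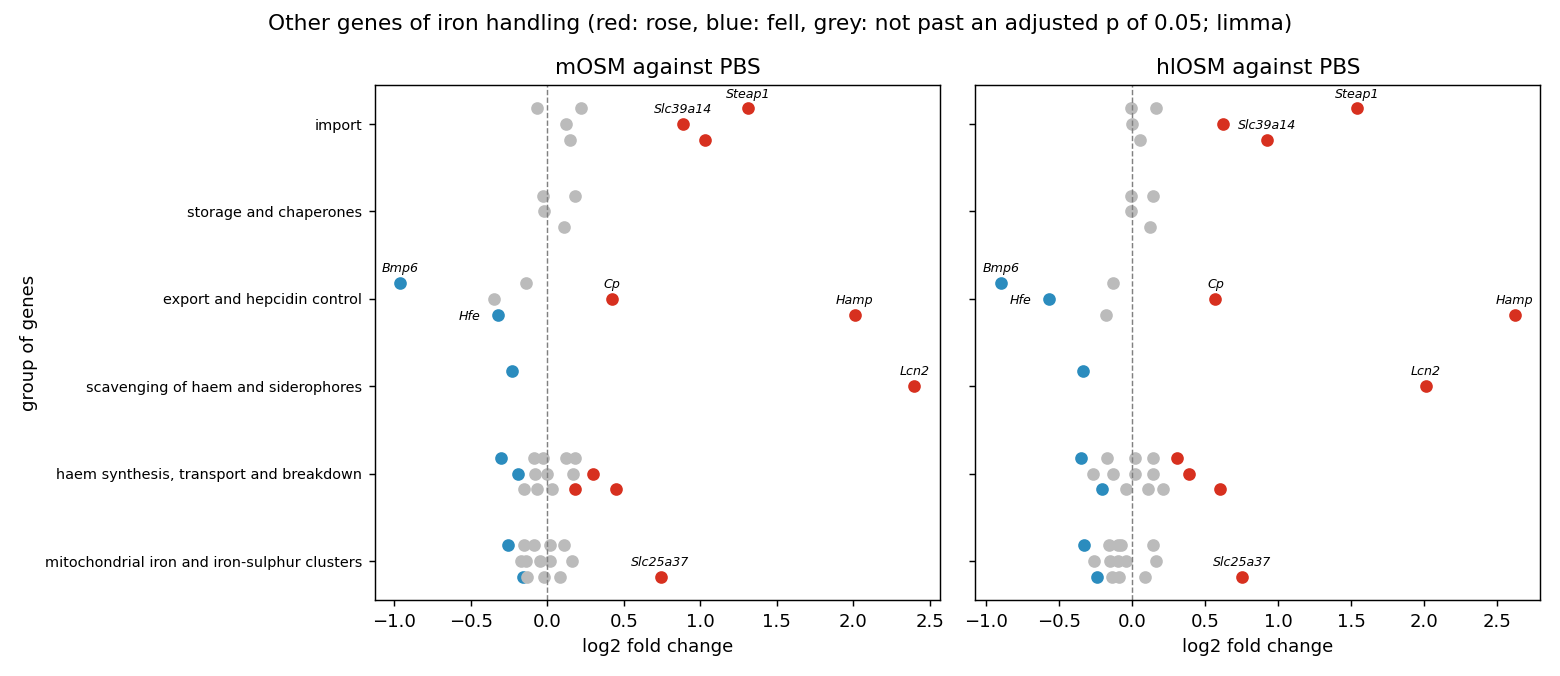
log2 fold changes (horizontal axes) of the 49 tested genes of the wider iron list, by group (vertical axis), for mOSM and hlOSM against PBS; each point is a gene, red where it rose, blue where it fell and grey where the adjusted p was not under 0.05. In both panels 10 genes are red and 7 are blue, and the points farthest right are Hamp (2.01 and 2.62) and Lcn2 (2.40 and 2.01), both at low normalized counts. The red points of Hamp, Lcn2 and Steap1 are descriptions, since these genes passed the filter only with cytokine libraries.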

How the data were processed

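RNA of primary cardiomyocytes was sequenced from 3 libraries in each of 4 conditions, with groups and numbers from the titles. After trimming, the authors used STAR 2.7.7a for alignment to mm10 and featureCounts 1.6.5 for reads lying in exons of a single gene, leaving out those that mapped to several places. The values deposited by the authors are a score on a normalized count scale, rounded to whole numbers and not divided by gene length. The name of the normalization is not given in the sources used here, so no test that models read counts was used, and the depth of a library is unknown. Columns were matched to samples by name.

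All 12 libraries were fitted together with limma 3.58.1 in R 4.3.3 (lmFit, eBayes with trend) on log2(normalized count + 1). A pseudocount of 1 understates changes of low genes. The fit took 13184 genes with a value of at least 10 in at least 3 libraries. Calls are two-sided, with a Benjamini-Hochberg adjusted p under 0.05 over all tested genes, and the fit was tested on simulated data. An exact permutation test of 3 against 3 libraries cannot give a p under 0.1 and was not used. Gene coordinates come from the table (mm10) and equal those of GENCODE on GRCm38 for all 10 members. Transcript lengths, overlaps, shared windows and hairpins were computed from that annotation, and promoters are those of RefSeq.

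The members and the lists were chosen with earlier results of these data known. Of the other iron genes, those named are Steap1, Steap2, Tfr2, Ftmt, Hamp, Cp, Lcn2 and Slc39a14, and for mOSM and hlOSM against PBS the 3 largest called rises and falls with a mean of at least 50. Tfr2 and Ftmt were not analysed here. Of the genes that this rule takes, 1 is not reported here.

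As alternatives, the pseudocount was set to 0.1 or 5, the filter was dropped or set to 50, and these were tried one at a time, as were trimmed-mean rescaling (factors 0.985 to 1.03), quantile normalization, a robust fit, the replicate number as a block, only the libraries compared, a minimum of 1.5-fold, and each library left out in turn. Leaving out the 4 libraries numbered 3 together was added after seeing the data.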

Additional observations from a re-analysis of the deposited data

How the results depend on the processing

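Over all alternatives no member changed direction past the threshold. With a minimum of 1.5-fold the count of members called was 1 in place of 7 for mOSM against PBS, and 0 in place of 8 for hlOSM against PBS, 0 in place of 1 for hlOSM against mLIF, and 0 in place of 4 for mLIF against PBS. For mLIF against PBS the count was 1 without the filter and 7 in a fit of only the libraries compared, and the cause was not tested. Quantile normalization gave 1 in place of 0 for mOSM against mLIF. With each library left out in turn the counts ranged from 1 to 5 for mLIF against PBS, 6 to 7 for mOSM and 7 to 8 for hlOSM against PBS, 0 to 1 for mOSM against mLIF, 1 to 2 for hlOSM against mLIF, and 0 to 1 for the comparison of the 2 steps. Leaving out the 4 libraries numbered 3, a choice made after seeing the data, gave 1 for mLIF, 5 for mOSM and 5 for hlOSM against PBS, 0 for hlOSM against mLIF and 1 for the comparison of the 2 steps, with fewer samples in the fit. The count for hlOSM against mOSM was 0 under every alternative. A fit of only the libraries compared could not be made for the comparison of the 2 steps, which needs all 4 conditions.

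Conditions share replicate numbers. The deviations cannot show whether same-numbered libraries were paired, since an effect of the number may have been removed before deposit. Deviations of same-numbered libraries correlated between -0.406 and -0.151 over 18 pairs. Of the spread inside conditions 1.7% went with the replicate number, against the 25% that a number without effect would give. The spread within a condition may thus have been reduced before deposit, and the adjusted p-values of the fit without a block may then be too small. With the replicate block, 1 member was called for mLIF, 6 for mOSM and 7 for hlOSM against PBS, where Aco1 with mOSM (adjusted p = 0.0513) and Steap3 with hlOSM (adjusted p = 0.104) lost the call. In the wider list the block took the call from Hfe (adjusted p = 0.054), Alas1 (0.055) and Hspa9 (0.0668) with mOSM, and from Slc39a8 (0.0631), Ppox (0.103) and Abcb10 (0.0574) with hlOSM. Counts for mLIF against PBS and for the comparison of the 2 steps are descriptions, since they hold the comparison that chose the set. Depth limits cannot be computed from normalized values.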
